A study of Mus musculus with 99 samples.

Results

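The Hoxc cluster is a run of 9 homeobox genes on mouse chromosome 15, and all 9 (Hoxc4, Hoxc5, Hoxc6, Hoxc8, Hoxc9, Hoxc10, Hoxc11, Hoxc12 and Hoxc13) were taken by name from a count table of 55341 gene names. Peaks of every antibody were taken over the same stretch, from the first base of Hoxc13 to the last base of Hoxc4 (mm10 chr15:102921103-103036852, 115.8 kb). All 9 genes lie on the + strand in the order Hoxc13, Hoxc12, Hoxc11, Hoxc10, Hoxc9, Hoxc8, Hoxc6, Hoxc5, Hoxc4, and Hotair, a noncoding RNA, lies between Hoxc12 and Hoxc11 on the other strand. One annotated Hoxc5 start, at position 102967443, lies inside Hoxc10, and the exons of both genes share 166 bases, so reads there could not be assigned to either gene with certainty.

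Hox genes encode homeodomain transcription factors that give cells their position along the head to tail axis of the embryo. Genes at the 3′ end of a cluster (here Hoxc4, Hoxc5 and Hoxc6) act in the neck and forelimb region, Hoxc8 and Hoxc9 in the trunk, and Hoxc10 to Hoxc13 in the lumbar region, hindlimb, tail and hair. In embryonic stem cells (ESCs) the clusters are held silent by the Polycomb Repressive Complexes. PRC1, built on RING1A or RING1B, attaches ubiquitin to histone H2A (H2AK119ub1), and PRC2, built on SUZ12, EED and EZH2, methylates histone H3 (H3K27me3). CBX7 and PCGF2 belong to canonical PRC1, in which CBX7 binds H3K27me3, while RYBP and PCGF6 belong to variant forms of PRC1. MTF2 and EPOP mark the PRC2 form called PRC2.1, and JARID2 and AEBP2 mark PRC2.2.

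The study asked what the catalytic activity of RING1B contributes to Polycomb repression. The Parental cells were ROSA26::creERT2 RING1A-/-; RING1B fl/fl ESCs, which lack RING1A in every condition and lose endogenous RING1B when 4-hydroxytamoxifen (OHT) activates the Cre recombinase. Their derivatives stably expressed FLAG-HA-tagged RING1B WT or RING1B I53S, a substitution in the RING domain that blocks ubiquitin transfer, and MTF2 KO clones were made from the 3 lines. A separate line, ROSA26:creERT2 Eed fl/fl, loses EED, a core subunit of PRC2, with OHT. Cells grew on gelatin in serum with 2i/LIF and received 0.5 µM OHT (+OHT) or ethanol as vehicle (-OHT) for 72 h, or OHT for 48 h in part of the MTF2 and JARID2 libraries, whose titles give 48 h although their treatment label gives 72 h. RNA-seq covered 8 groups of 2 libraries each, and ChIP-seq with 12 antibodies covered 66 groups, of which 4 had 2 libraries and 62 had 1. Nothing in the labels says whether replicates were separate cultures, so p-values measure only the spread between these libraries, and a line and its clone cannot be told apart.

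Total counts per RNA-seq library were 8140106 to 12743460 in the 12 Parental, RING1B WT and RING1B I53S libraries and 6957248 to 9443814 in the 4 Eed fl/fl libraries. Eed itself had 2069 and 1446 counts in the -OHT and 539 and 356 in the +OHT Eed fl/fl libraries (log2 fold change -1.95, SE 0.315, edgeR adjusted p = 0.0766), with no overlap. Rnf2, which encodes RING1B, was lower in Parental +OHT than -OHT on the log2 scale (-0.55, SE 0.196, adjusted p = 0.0346). Its counts cover the whole gene model, and in RING1B WT and RING1B I53S cells the transgene too, and so do not check the deletion. The naive ESC markers fixed for the check summed to between 3910 and 5390 CPM (counts scaled to the size of each library) in the -OHT libraries of the 3 RING1B lines, so the cells carried the markers of their label. Peak lists carry no read depth, and most ChIP-seq conditions had 1 library, so peaks are described without a test.

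The 4 sequences of 300 bases printed here, from the + strand of mm10, come from stretches where peaks were kept or lost in RING1B I53S +OHT cells. Every CG dinucleotide is in capitals because CG-rich DNA is where Polycomb complexes gather in mammals, and its part in these results was not tested. The first 3 sequences lie at the centres of the stretches of the cluster that held peaks in RING1B I53S +OHT cells for MTF2 (both libraries), SUZ12, EPOP and at least 1 JARID2 library. The Hoxc9 sequence lies about 5.09 kb past a Hoxc9 start at chr15:102981969-102982268, where 222 of its bases are coding sequence. The Hoxc8 sequence, at chr15:102990849-102991148, is wholly coding. The Hoxc6 sequence lies at chr15:102996115-102996414, upstream of the first Hoxc6 start and outside every annotated exon. The last, at chr15:102935081-102935380 upstream of Hoxc12, is the centre of the longest exon-free stretch covered by both MTF2 libraries of RING1B WT +OHT cells and by neither of RING1B I53S +OHT cells.
Hoxc9, kept: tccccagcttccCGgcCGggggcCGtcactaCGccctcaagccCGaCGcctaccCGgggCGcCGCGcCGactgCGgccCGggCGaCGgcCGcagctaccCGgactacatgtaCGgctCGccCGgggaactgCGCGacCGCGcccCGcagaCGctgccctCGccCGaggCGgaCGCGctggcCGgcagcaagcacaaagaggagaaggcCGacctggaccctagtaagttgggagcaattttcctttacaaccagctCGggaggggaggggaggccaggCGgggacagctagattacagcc
Hoxc8, kept: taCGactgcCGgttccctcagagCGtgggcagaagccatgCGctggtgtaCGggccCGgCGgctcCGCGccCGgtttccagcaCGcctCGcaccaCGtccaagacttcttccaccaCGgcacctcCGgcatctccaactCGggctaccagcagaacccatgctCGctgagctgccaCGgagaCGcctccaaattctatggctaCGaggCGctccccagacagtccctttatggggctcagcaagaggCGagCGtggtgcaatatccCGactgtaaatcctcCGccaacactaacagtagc
Hoxc6 upstream, kept: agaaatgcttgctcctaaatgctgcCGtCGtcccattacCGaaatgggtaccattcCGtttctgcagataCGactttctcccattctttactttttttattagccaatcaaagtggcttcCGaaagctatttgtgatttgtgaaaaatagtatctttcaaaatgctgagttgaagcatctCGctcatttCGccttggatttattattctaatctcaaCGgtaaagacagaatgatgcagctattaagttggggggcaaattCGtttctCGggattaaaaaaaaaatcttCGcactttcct
Hoxc12 upstream, lost: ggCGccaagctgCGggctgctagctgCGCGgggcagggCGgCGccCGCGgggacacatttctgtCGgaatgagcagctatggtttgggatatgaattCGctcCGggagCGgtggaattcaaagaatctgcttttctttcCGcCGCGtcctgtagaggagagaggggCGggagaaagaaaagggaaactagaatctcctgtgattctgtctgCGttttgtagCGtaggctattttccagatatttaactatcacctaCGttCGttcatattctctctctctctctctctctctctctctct
These windows held 35, 25, 12 and 20 CG dinucleotides, in that order. Among 32851 RefSeq promoters of the same length (GRCm38), the median was 7 with quartiles of 3 and 20, and 94.6% held at least 1 (the motif searched was CG, which reads the same on both strands). More CG dinucleotides than in 93% of promoters were thus found in the Hoxc9 window, than in 81.6% for Hoxc8, 73.5% for the lost window and 60.4% for the Hoxc6 window, so the lost window was richer in CG than 1 of the 3 kept ones.

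Before OHT the cluster was close to silent except for 3 genes. Hoxc13, which regulates hair keratin genes, had 96 and 44 counts in the Parental -OHT libraries, 69 and 61 in RING1B I53S and 30 and 43 in RING1B WT. Hoxc4, at the 3′ end, had 44 and 15, 41 and 46, and 31 and 11 counts in the same order. Hoxc12 had 13 and 7, 27 and 8, and 5 and 8. The other 6 members had at most 7 counts in any of these 6 libraries, and Hoxc8 had none in any of them. Per kilobase of exon, Parental -OHT levels were 2.69 CPM for Hoxc13, 1.06 for Hoxc4, 0.933 for Hoxc12 and at most 0.109 for each of the others. Thus transcripts were detected from both ends of the cluster and hardly from its middle, and with 2 libraries the order of Hoxc4 and Hoxc12 was not resolved.

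**Figure D1:**
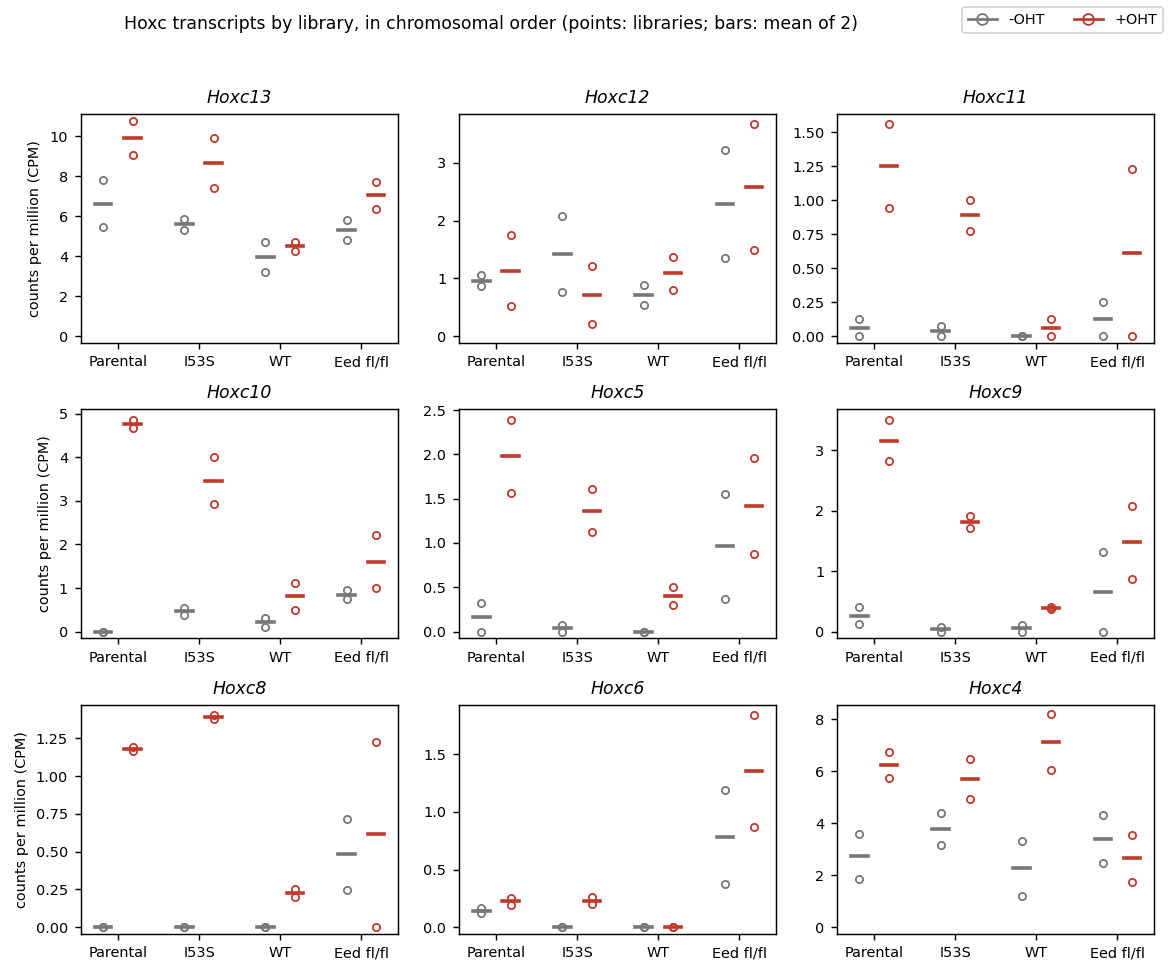
Expression of the 9 Hoxc genes by library. Each panel plots CPM on a linear axis for 1 gene in the 16 RNA-seq libraries, with points for libraries (grey -OHT, red +OHT) and bars for the mean of 2. Hoxc10 reaches 4.87 and 4.68 CPM in Parental +OHT and 4.01 and 2.93 in RING1B I53S +OHT, against 0.503 and 1.12 in RING1B WT +OHT.

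Upon loss of RING1B in Parental cells, the trunk and lumbar genes Hoxc8, Hoxc9, Hoxc10 and Hoxc11 and the neck gene Hoxc5 rose past the fold threshold, and Hoxc4 rose by less. Hoxc10, which acts in lumbar motor neurons and the hindlimb, went from 0 and 0 counts to 57 and 48 (log2 fold change 8.62, SE 1.09, edgeR quasi-likelihood adjusted p = 8e-06). Against a floor of 3 counts for the 2 libraries this is at least 32.4-fold higher, and the fitted value depends on the prior count of the fit. Hoxc8 went from 0 and 0 to 14 and 12 counts, at least 8.03-fold higher (6.62, SE 1.45, adjusted p = 0.00198). Both genes thus changed from no read in either library to reads in both.
Hoxc9, which specifies thoracic motor neurons, went from 5 and 1 to 33 and 36 counts (3.41, SE 0.726, adjusted p = 0.00117). Hoxc5, which acts in the neck, went from 4 and 0 to 28 and 16 (3.31, SE 0.892, adjusted p = 0.0073). Hoxc11, a gene of the hindlimb and tail region, went from 0 and 1 to 11 and 16 (4.33, SE 1.19, adjusted p = 0.00804), a ratio of 25 with a 95% counting interval of 4.12 to 1020. Counts of these 3 genes did not overlap between -OHT and +OHT, but their -OHT counts were too low for a precise fold.

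Hoxc4 rose less, from 44 and 15 to 79 and 59 counts (log2 fold change 1.16, SE 0.431, adjusted p = 0.0423), short of the fold threshold of 1.5 on the log2 scale used for a call. Hoxc13 had 96 and 44 against 126 and 93 counts (0.57, SE 0.317, adjusted p = 0.178). Hoxc12 had 13 and 7 against 6 and 18 (0.2, SE 0.777, adjusted p = 0.871), the 1 member whose libraries overlapped. Hoxc6, a gene of the forelimb region, had 2 and 1 against 3 and 2 counts and was too low to be tested.
In all, 5 of the 8 tested members were called higher and none lower, beside 15.1% of the 18154 genes tested that were called higher in the same comparison. Those 5 genes passed the filter on low counts only through +OHT libraries, none of the -OHT libraries having them over 1 CPM, so their count is a description and not a rate. Every +OHT library lay above every -OHT library for 8 of the 9 members, Hoxc6 included, against 38.1% of tested genes. Hoxc5 lost its call without Parental -OHT replicate 2 (adjusted p = 0.0913) or +OHT replicate 1 (0.0794), and Hoxc11 lost it without -OHT replicate 1 (0.128) or +OHT replicate 2 (0.0786) and with DESeq2 (0.0581). In bulk RNA, more cells expressing a gene and more RNA per cell cannot be told apart.

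With RING1B I53S in place of endogenous RING1B, Hoxc5, Hoxc8, Hoxc9, Hoxc10 and Hoxc11 rose as well. Hoxc8 went from 0 and 0 counts to 14 and 16 upon OHT treatment, at least 10.8-fold higher (log2 fold change 6.85, SE 1.36, edgeR adjusted p = 0.0013). Hoxc9 went from 1 and 0 to 19 and 20 (5.06, SE 0.976, adjusted p = 0.000683). Hoxc5 went from 1 and 0 to 16 and 13 (4.65, SE 1.13, adjusted p = 0.00459). The 3 genes were at 1 count or none in each -OHT library and at 13 or more in each +OHT library.
Hoxc11 went from 1 and 0 to 10 and 9 counts (4.04, SE 1.21, adjusted p = 0.0178), and Hoxc10 from 7 and 4 to 40 and 34 (2.86, SE 0.599, adjusted p = 0.00154). Counting intervals were wide where -OHT held 1 count, with a ratio of 42.2 (7.15 to 1710) for Hoxc9, 31.4 (5.21 to 1280) for Hoxc5 and 20.6 (3.27 to 855) for Hoxc11. Hoxc13 (69 and 61 against 99 and 86 counts, 0.63, SE 0.321, adjusted p = 0.157), Hoxc4 (41 and 46 against 49 and 75, 0.59, SE 0.418, adjusted p = 0.32) and Hoxc12 (27 and 8 against 2 and 14, -0.99, SE 0.769, adjusted p = 0.371) did not pass the test.
The 5 members called higher in these cells bore the same names as in Parental cells, beside 12.8% of all tested genes, and 8 of 9 members did not overlap between -OHT and +OHT, all above, beside 31.5%. Those 5 genes passed the filter on low counts of the shared fit only through +OHT libraries, so their count and their shared names are a description. Hoxc6 had no count in either -OHT library and 2 and 3 counts with OHT. Hoxc11 lost its call without -OHT replicate 1 (adjusted p = 0.0579), without -OHT replicate 2 (0.165), without +OHT replicate 1 (0.0666) and with DESeq2 (0.0952), and Hoxc5 lost it without -OHT replicate 2 (0.0673).

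With RING1B WT in place of endogenous RING1B, no Hoxc gene was called. Hoxc10 had 3 and 1 counts without and 5 and 9 with OHT (log2 fold change 1.82, SE 0.826, edgeR adjusted p = 0.285). Hoxc9 had 0 and 1 against 4 and 3 (2.6, SE 1.25, adjusted p = 0.317), and Hoxc8 had 0 and 0 against 2 and 2 (4.28, SE 1.93, adjusted p = 0.285), at least 1.37-fold higher. Hoxc5 had 0 and 0 against 3 and 4 (5.06, SE 1.89, adjusted p = 0.18), at least 2.4-fold higher, and Hoxc11 had 0 and 0 against 0 and 1, too few for a fold (adjusted p = 0.663). These values were small but mostly above the -OHT libraries, since 5 of 9 members (Hoxc4, Hoxc5, Hoxc8, Hoxc9 and Hoxc10) did not overlap, beside 26.9% of tested genes.
Hoxc4 was the member nearest to a call, with 31 and 11 against 60 and 66 counts (1.64, SE 0.447, adjusted p = 0.0589), and it was called by DESeq2 (adjusted p = 0.0412) and in the fit with all genes of at least 1 count (0.0106). Hoxc13 had 30 and 43 against 47 and 34 counts (0.18, SE 0.351, adjusted p = 0.856), and Hoxc12 had 5 and 8 against 8 and 11 (0.6, SE 0.836, adjusted p = 0.786). No member was called, beside 1.34% of all tested genes called higher, and 2875 of the 18154 genes had an unadjusted p under 0.05.

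**Figure D2:**
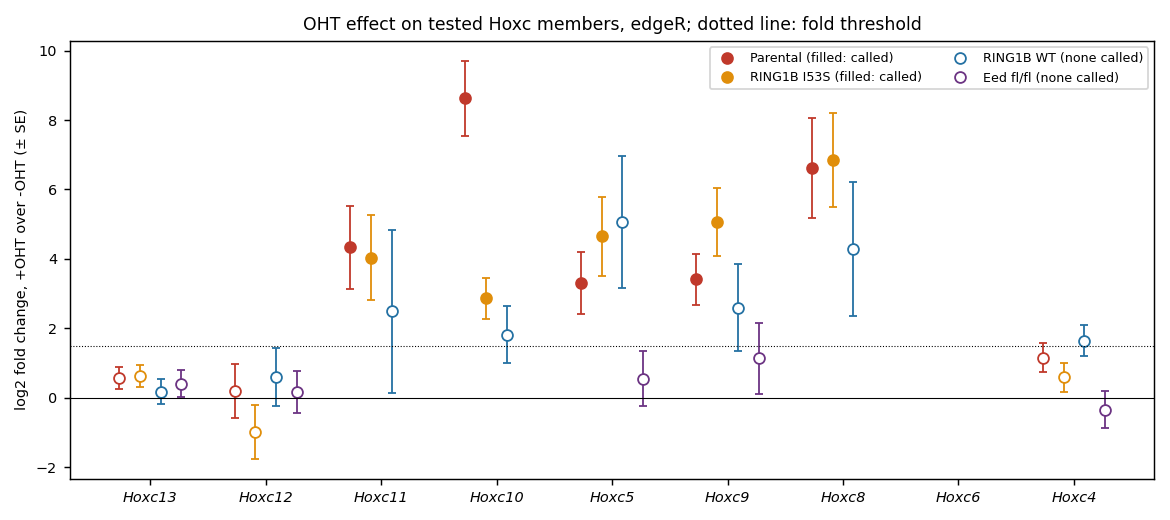
OHT effect on the tested Hoxc genes in each line. Points give the log2 fold change of +OHT over -OHT with bars of 1 SE derived from the edgeR F statistic, filled where called (at least 1.5 on the log2 scale and adjusted p under 0.05), for Parental, RING1B I53S, RING1B WT and Eed fl/fl cells. Filled points appear for Hoxc5, Hoxc8, Hoxc9, Hoxc10 and Hoxc11 in Parental and RING1B I53S cells and for no gene in the other lines.

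Comparing the lines directly under OHT separated RING1B WT from Parental cells at 3 genes. Hoxc10 had 5 and 9 counts in RING1B WT +OHT against 57 and 48 in Parental +OHT (log2 difference -2.57, SE 0.574, edgeR adjusted p = 0.00448). Hoxc9 had 4 and 3 against 33 and 36 (-2.98, SE 0.709, adjusted p = 0.00643), and Hoxc11 had 0 and 1 against 11 and 16 (-4.2, SE 1.2, adjusted p = 0.02). These 3 genes passed the filter on low counts only through +OHT libraries, so their count is a description and not a rate. All 3 were called lower, beside 7.62% of tested genes, although none stayed called without RING1B WT +OHT replicate 1, whereas Hoxc10 alone did without RING1B WT +OHT replicate 2 and without Parental +OHT replicate 2.
Hoxc8 (-2.34, adjusted p = 0.0746) and Hoxc5 (-2.3, adjusted p = 0.0579) missed the threshold, though Hoxc5 was called with either other filter on low counts (0.04 and 0.0424) and both were called with only the 4 libraries compared (0.0254 and 0.0162), and Hoxc13 was 1.14 lower on the log2 scale (-1.14, SE 0.33, adjusted p = 0.0206), short of the fold. Hoxc4 (0.18) and Hoxc12 (-0.06) had values close to 0. The genes called lie in the middle of the cluster, and Hoxc4 at its 3′ end had 60 and 66 counts in RING1B WT +OHT and 79 and 59 in Parental +OHT.

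Between RING1B I53S and Parental cells under OHT no member was called, beside 0.16% of tested genes called in either direction and 901 genes with an unadjusted p under 0.05. The differences ran from -0.8 for Hoxc9 (95% interval -1.93 to 0.33) to 0.23 for Hoxc8 (-1.1 to 1.56), and Hoxc10 differed by -0.46 (-1.41 to 0.49), with adjusted p between 0.993 and 0.998. The intervals passed 1 on the log2 scale in 1 direction or both at 6 of the 8 tested members (all but Hoxc4 and Hoxc13), so equal levels were not shown. RING1B I53S exceeded RING1B WT under OHT with a call at Hoxc10 (40 and 34 against 5 and 9 counts, 2.11, SE 0.58, adjusted p = 0.0212), beside 6.02% of tested genes called higher. Hoxc10 passed the filter on low counts only through +OHT libraries, so this call too is a description. That call was lost when only the 4 libraries compared were fitted (adjusted p = 0.0506), when replicate 1 of RING1B WT +OHT was left out (0.208), or that of RING1B I53S +OHT (0.0895). Hoxc11 (3.72, adjusted p = 0.0547), Hoxc8 (2.58, 0.0593), Hoxc9 (2.18, 0.0531) and Hoxc13 (0.94, 0.065) had adjusted p just above the threshold, and Hoxc5 (1.76, 0.177), Hoxc4 (-0.32) and Hoxc12 (-0.56) lay farther from it. Under other filters Hoxc9 was called too (all genes of at least 1 count, adjusted p = 0.0395), or Hoxc8, Hoxc9 and Hoxc11 together (at least 10 counts in every library of a group, 0.0412, 0.0427 and 0.0416), so that the count of called members ran from 0 to 4 over the settings tried.
Without OHT, 0 members were called between lines by edgeR, beside 0.154% of tested genes for RING1B I53S against Parental and 0.0606% for RING1B WT against Parental, with 947 and 825 genes at an unadjusted p under 0.05. Hoxc10 still had 7 and 4 counts in RING1B I53S -OHT against 0 and 0 in Parental -OHT (5.31, SE 1.5, adjusted p = 0.269). The difference between OHT effects in RING1B WT and Parental cells was -6.81 for Hoxc10 (SE 1.79, adjusted p = 0.0545), with 1.1% of tested genes called lower, and no gene at all (0%) passed in either direction for RING1B I53S against Parental, where 488 had an unadjusted p under 0.05.

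In Eed fl/fl cells no tested Hoxc gene passed, and Hoxc6, Hoxc8, Hoxc10 and Hoxc11 were too low to be tested. Hoxc10 had 6 and 8 counts without and 8 and 18 with OHT, Hoxc9 had 0 and 11 against 7 and 17, and Hoxc5 had 3 and 13 against 7 and 16. Hoxc8 had 2 and 6 against 0 and 10, and Hoxc11 had 2 and 0 against 0 and 10. The second library of each Eed fl/fl pair held more reads of most members than the first, and the ranges of -OHT and +OHT libraries overlapped for 7 of the 9. Within same-numbered libraries, CPM of Hoxc5, Hoxc6, Hoxc9, Hoxc10, Hoxc12 and Hoxc13 was higher with OHT in both pairs. The share of all genes higher in both pairs was not counted, but 56.5% of the 25170 tested genes had a positive fold change. Nothing in the labels says that a shared number marks a pair.
Hoxc6 had 3 and 10 against 7 and 15 counts, more in each Eed fl/fl -OHT library than in Parental -OHT cells. Hoxc13 (47 and 40 against 51 and 63 counts, 0.41, SE 0.391, edgeR adjusted p = 0.866), Hoxc12 (11 and 27 against 12 and 30, 0.17, SE 0.608, 0.967) and Hoxc4 (20 and 36 against 14 and 29, -0.35, SE 0.532, 0.917) did not pass either. No member of the 5 tested was called, beside 0.00795% of 25170 genes called higher (2 genes) and 1372 genes with an unadjusted p under 0.05, and 2 members (Hoxc10 and Hoxc13) did not overlap, beside 22.1%. Eed, the deleted gene, was not called in this fit either, so the lack of calls does not show that members did not respond. The other Hox genes summed to 22.2 and 50.9 CPM in Eed fl/fl -OHT against 4.81 and 5.07 in Parental -OHT cells. In a fit of all 16 libraries the OHT effect on Hoxc10 was lower in Eed fl/fl than in Parental cells (-7.62, SE 1.59, adjusted p = 0.00289), beside 3.96% of 27663 genes, with Parental -OHT at 0 counts. Only +OHT libraries had Hoxc10 over the cutoff on low counts, so this call too is a description. Eed fl/fl is another line, of its own origin, so the lost gene and the line cannot be told apart.

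Summed over the 9 genes, expression was 13.4 and 8.53 CPM in Parental -OHT and 30.5 and 29.2 in Parental +OHT. In RING1B I53S cells it was 11.4 and 11.4 CPM before and 25.2 and 23.2 after OHT, and in RING1B WT cells 7.38 and 7.02 before and 13 and 16.2 after OHT. Eed fl/fl cells had 11.6 and 18.1 CPM without and 13.2 and 25.5 with OHT. Only in the Eed fl/fl line did the sums of both conditions overlap. Per kilobase, the order in Parental +OHT was Hoxc13 (4.03 CPM), Hoxc10 (2.5), Hoxc4 (2.43), Hoxc9 (1.3), Hoxc12 (1.1), Hoxc5 (0.64), Hoxc11 (0.618), Hoxc8 (0.418) and Hoxc6 (0.0937). Hoxc10 and Hoxc4 could not be ranked against each other with 2 libraries, nor could Hoxc9 and Hoxc12, Hoxc12 and Hoxc5, or Hoxc5 and Hoxc11.
Across the 12 Parental, RING1B WT and RING1B I53S libraries, the members tracked their own sum to different degrees (Pearson r of log2 CPM values, given as a description because the libraries share line, treatment and depth). It was 0.966 for Hoxc5, 0.939 for Hoxc9, 0.921 for Hoxc10, 0.918 for Hoxc8, 0.886 for Hoxc11, 0.825 for Hoxc13, 0.764 for Hoxc4, 0.758 for Hoxc6 and -0.0319 for Hoxc12. The tested genes outside the cluster most like the sum were Unc5a (0.985), Shisa4 (0.982), Krt79 (0.98), Gstm5 (0.979) and Gas7 (0.978).

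None of the genes around the cluster was called, whereas most other Hox genes were. Of the 12 protein-coding genes nearest to the cluster, 9 were tested and none was called in Parental, RING1B I53S or RING1B WT cells (median log2 fold changes -0.03, -0.3 and -0.05), nor was any of 10 in Eed fl/fl cells. Cbx5, a neighbour that encodes a heterochromatin protein, had -0.63 in Parental cells (adjusted p = 0.0123), short of the fold. Hotair had 1 and 0 counts in Parental -OHT and 6 and 5 in Parental +OHT, and was too low to be tested, and without strand its reads cannot be told from those of the opposite strand. None of the 7 gene models within the cluster that are not Hox genes, Hotair included, was high enough to be tested.
Among the 30 other Hox genes, all 21 tested were called higher in Parental cells, beside the 15.1% of all genes, for example Hoxb13 (4.67, adjusted p = 2.52e-07) and Hoxa7 (4.93, 4.01e-07). In RING1B I53S cells 20 of 21 were called higher (12.8% of all genes), in RING1B WT cells 5 of 21 (1.34%), and in Eed fl/fl cells 0 of 13. Only genes that passed the filter on low counts enter these counts, 21 of the 30. The Cdx genes, which encode caudal factors that act upstream of Hox genes in the embryo, rose at 3 of 3 in Parental (Cdx1 2.39, Cdx2 4.46, Cdx4 7.51), at 1 of 3 in RING1B I53S (Cdx2 4.53) and at none in RING1B WT cells. Of 9 genes for the TALE cofactors that bind DNA with Hox proteins, Meis1 (2.17), Meis2 (1.64) and Meis3 (1.64) rose in Parental, 2 rose in RING1B I53S and none rose in RING1B WT cells.

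Markers of other cell types moved with the Hoxc genes, and their part in the result was not tested. Primitive endoderm markers summed to 1.47 to 2.35 CPM in Parental -OHT and 24.2 to 26.2 in Parental +OHT (5 of 5 called higher), 1.44 to 2.16 and 18.3 to 21.6 in RING1B I53S (5 of 5), and 1.54 to 2.99 and 3.52 to 6.72 in RING1B WT cells (0 of 5). Fibroblast markers, of which 3 of 8 were tested, went from 11.9 to 14 CPM to 46.1 to 49.5 in Parental (2 called higher), from 14.8 to 15.5 to 40.3 to 50.8 in RING1B I53S (1 called) and from 10.1 to 12.1 to 20.6 to 20.7 in RING1B WT cells (none called). In Parental cells 4 of 5 tested mesoderm, 3 of 4 neural and 3 of 5 trophoblast markers rose, in RING1B I53S cells 3 of 5, 3 of 4 and 2 of 5, and in RING1B WT cells 0 of 5, 0 of 4 and 1 of 5. In RING1B WT cells mesoderm markers summed to 2.57 and 1.1 CPM before and 4.93 and 4.61 after OHT, neural markers to 8.13 and 7.57 and to 13.2 and 20.9, and trophoblast markers to 170 and 159 and to 235 and 211. Naive ESC markers fell in sum from 3910 to 4540 CPM to 2160 to 2250 in Parental and from 4100 to 4720 to 2410 to 2610 in RING1B I53S, and were 4310 to 5390 without and 3890 to 3920 with OHT in RING1B WT cells. Of the 10 naive markers, 3 were called lower and 1 higher in Parental cells, beside 1.83% and 15.1% of all tested genes. In RING1B I53S cells 1 was called lower (1.04% of all genes) and none higher, and in RING1B WT cells none was called.

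On chromatin, the cluster was covered by every PRC1 and PRC2 antibody in Parental -OHT cells, RYBP barely. A promoter here is the DNA within 2.5 kb of any annotated start of a gene, a peak counts with at least 1 base of overlap, and a peak score is the MACS2 -log10 p, at least 10 by construction. RING1B peaks covered 27.3% of the cluster in Parental -OHT and reached 9 of 9 Hoxc promoters, beside 9.33% of all gene promoters in the same library. After OHT RING1B had no peak in the cluster in Parental cells (0.691% of all promoters) or RING1B I53S cells (1.46%), and in RING1B WT cells it covered 19.1% and 8 of 9 promoters, all but Hoxc4 (7.04%). RING1B I53S peaks were thus left at 3 of the 30 other Hox promoters and at none of the Hoxc promoters.
H2AK119ub1, the mark that RING1B makes, covered 35.6% of the cluster and 9 promoters in Parental -OHT cells (12.4% of all promoters) and 49.7% and 9 promoters in RING1B WT +OHT cells (15%). In Parental +OHT cells peaks were called over 4.2% of the cluster and at 5 promoters, those of Hoxc13, Hoxc12, Hoxc11, Hoxc10 and Hoxc5. Their scores ran from 13.2 to 22.8 (10.3% of all promoters had a peak), and the Hoxc5 promoter includes the start inside Hoxc10. The paper reports that the mark was lost from OHT-treated Parental cells. These peak lists do not use the spike-in, so they give no level of the mark and do not rank Parental against RING1B I53S cells. Whether the called peaks reflect any mark left in Parental +OHT cells was not tested. In RING1B I53S +OHT cells there was no H2AK119ub1 peak in the cluster, where the same library still had peaks at 5.74% of all promoters and at 18 of the 30 other Hox promoters.

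Canonical PRC1 was lost from the cluster in the same conditions as RING1B. PCGF2 covered 41.2% of the cluster in Parental -OHT, 36.1% in RING1B WT +OHT, 0.4% in RING1B I53S +OHT and 0% in Parental +OHT cells, with 9, 9, 1 and 0 of the 9 promoters. Of all promoters it reached 9.2%, 6.81%, 1.29% and 0.132% in the same order. The PCGF2 peak left in RING1B I53S cells was a single peak of 515 bp with a score of 11 at a Hoxc5 start. CBX7 covered 61.4%, 39.2%, 0% and 0% in the same order, with 9, 8, 0 and 0 promoters, where all promoters had 9.31%, 4.92%, 0.0542% and 0.118%. Before OHT, CBX7 scores were 493.9 to 886.4 at the 7 promoters from Hoxc11 to Hoxc4, and 33 at Hoxc12 and 23.7 at Hoxc13, the 2 genes at the 5′ end.
Variant PRC1 was sparse. PCGF6 covered 2.6% in Parental -OHT (3 promoters) and 10.4% in RING1B WT +OHT cells (8 promoters, all but Hoxc4), beside 13.8% and 13.2% of all promoters. It covered none in Parental or RING1B I53S +OHT cells, although it kept peaks at 9.09% and 4.75% of all promoters there. RYBP had 1 peak of 671 bp in the cluster in Parental -OHT cells, at no Hoxc promoter but over part of the kept Hoxc9 stretch (chr15:102981647-102982317), and none in the other 3 libraries.

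**Figure D3:**
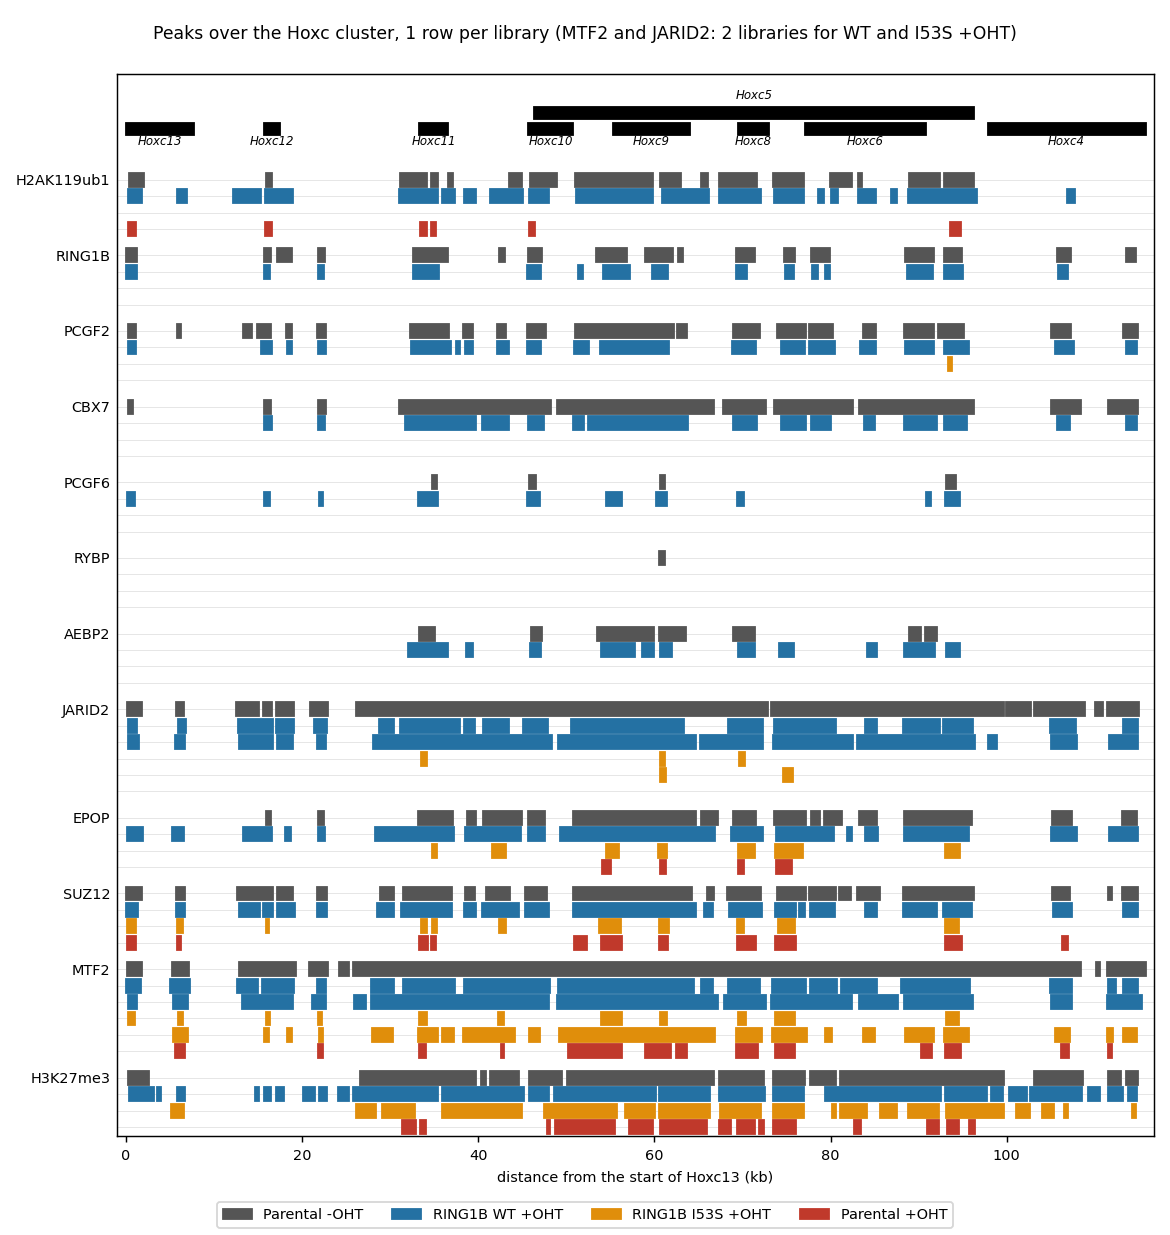
Peaks across the Hoxc cluster. Horizontal bars are peaks by distance in kb from the Hoxc13 start, with 1 row per library for 12 antibodies in Parental -OHT, RING1B WT +OHT, RING1B I53S +OHT and Parental +OHT cells, and gene positions are marked. Rows for RING1B and CBX7 are empty in the last 2 conditions, whereas SUZ12, MTF2 and EPOP keep peaks in both.

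PRC2 kept a part of its peaks. SUZ12, the core subunit, covered 55.6% of the cluster in Parental -OHT, 53.5% in RING1B WT +OHT, 13.2% in Parental +OHT and 10.3% in RING1B I53S +OHT cells, with 9, 9, 6 and 7 promoters, beside 15.2%, 12.5%, 10.8% and 6.59% of all promoters. Highest scores fell in the same order from 697.4 to 455.9, 85 and 46. In RING1B I53S +OHT cells SUZ12 had no peak at the Hoxc10 and Hoxc4 promoters, and its scores at the other 7 were 10.2 (Hoxc12) to 30.4 (Hoxc6). H3K27me3, the mark PRC2 makes, covered 67.6%, 76.5%, 24.5% and 52.9% of the cluster in the order Parental -OHT, RING1B WT +OHT, Parental +OHT and RING1B I53S +OHT, with 8, 9, 7 and 8 promoters beside 15.3%, 15.2%, 11.9% and 10.8% of all promoters. RING1B I53S cells thus had H3K27me3 peaks over more of the cluster than Parental +OHT cells, in 1 library each, and these peak lists do not use the spike-in.

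The PRC2.2 subunits had the least left. JARID2 covered 83.5% in Parental -OHT, 81.3% in RING1B WT -OHT and 75.3% in RING1B I53S -OHT cells, with all 9 promoters each, beside 17.5%, 11.6% and 10.6% of all promoters. With OHT for 72 h it covered 54% and 70.6% in the 2 RING1B WT libraries, 1.7% and 1.5% in the 2 RING1B I53S libraries and 0% in Parental cells. The RING1B WT libraries held all 9 promoters (9.88% and 9.8% of all promoters), the RING1B I53S libraries 2 and 1 (2.05% and 0.801%) and the Parental library none (2.6%). The RING1B WT and RING1B I53S libraries did not overlap. JARID2 peaks were left at the promoters of Hoxc11 and Hoxc8 in 1 RING1B I53S library (scores 12 and 12.8) and of Hoxc6 in the other (17.1), so the 2 libraries shared no member promoter. AEBP2 covered 15.5% in Parental -OHT and 19.9% in RING1B WT +OHT cells, each with 6 promoters (all but Hoxc13, Hoxc12 and Hoxc4), beside 2.3% and 2.47% of all promoters. It had no peak in the cluster in the other conditions, where it had 14 and 50 peaks genome-wide in Parental and RING1B I53S +OHT cells.
PRC2.1 kept more. EPOP covered 44.8%, 59.3%, 3.7% and 9.9% in Parental -OHT, RING1B WT +OHT, Parental +OHT and RING1B I53S +OHT cells, with 8, 9, 3 and 6 promoters beside 12.6%, 12.6%, 5.19% and 5.7% of all promoters. MTF2 covered 63.7% and 71.3% in the 2 RING1B WT libraries, 10.1% and 46% in the 2 RING1B I53S libraries and 19.3% in Parental cells after 72 h, with 9 and 9, 7 and 8, and 6 promoters, beside 14.6% and 13.2%, 5.86% and 13%, and 13% of all promoters. The 2 RING1B I53S libraries of MTF2 differed more from each other than the second did from RING1B WT, and they also differed genome-wide, with 3091 and 7546 peaks. Their highest score in the cluster was nevertheless at the same place, upstream of Hoxc6 (72.4 and 243.9).

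**Figure D4:**
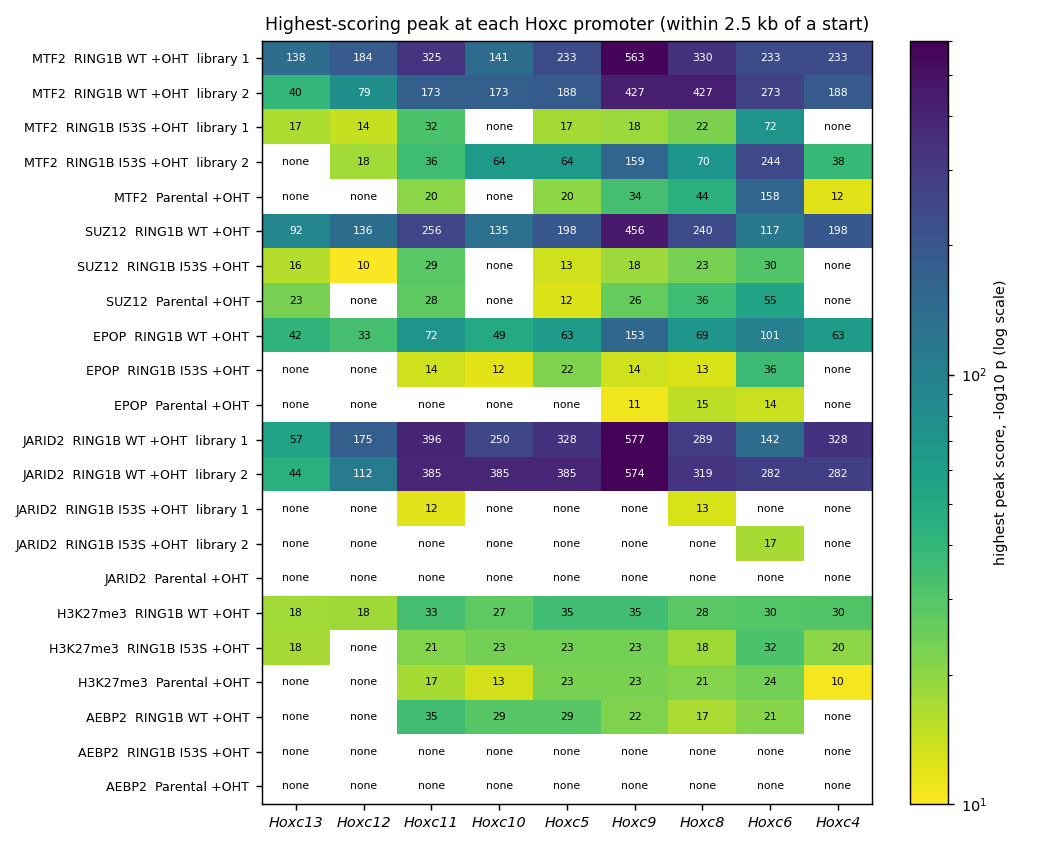
Highest peak score at each Hoxc promoter for PRC2 antibodies. Rows are antibodies in RING1B WT, RING1B I53S and Parental +OHT libraries, columns are the 9 genes in cluster order, and colour gives the highest MACS2 score (-log10 p) of a peak touching the promoter, with blank cells for no peak. MTF2 scores at the Hoxc6 promoter are 72.4 and 243.9 in the 2 RING1B I53S libraries, and JARID2 cells are mostly blank in RING1B I53S and Parental rows.

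Promoters differed in what they kept in RING1B I53S +OHT cells. At Hoxc6, MTF2 scores were 72.4 and 243.9, EPOP 36, SUZ12 30.4 and H3K27me3 32. At Hoxc9, MTF2 scores were 18.5 and 159, EPOP 13.5, SUZ12 18.3 and H3K27me3 23.4, and at Hoxc8 they were 22.4 and 70.3, 12.7, 23 and 17.8. At Hoxc11 they were 32 and 35.7, 13.5, 28.7 and 21.3, and at Hoxc5 17.3 and 64.2, 22, 13.4 and 23.4. With windows of 2.5 kb to either side of a start, these 5 promoters thus held each of these PRC2 readouts. Windows of genes with several starts were longer, at 12274 bp for Hoxc6, 10002 for Hoxc5 and Hoxc4, 6283 for Hoxc8 and 5594 for Hoxc9, against 5001 for Hoxc11. With promoters of 1 kb to either side EPOP was left at 4 promoters instead of 6, so not all 5 then held every readout. The MTF2 score of 64.2 at Hoxc5 belongs to a peak near its start inside Hoxc10 and is shared with the Hoxc10 promoter.
Hoxc10 and Hoxc4 had no MTF2 peak in the first library and scores of 64.2 and 38.5 in the second, and neither had a SUZ12 peak. Hoxc13 had an MTF2 peak of 16.6 in the first library only, and Hoxc12 had 14.3 and 17.6. EPOP was absent at Hoxc13, Hoxc12 and Hoxc4. Hoxc4 still had an H3K27me3 score of 20.5 and Hoxc10 one of 23.4. Of the 5 promoters that held every readout with windows of 2.5 kb, those of Hoxc5, Hoxc8, Hoxc9 and Hoxc11 belong to genes that rose in RING1B I53S cells, and Hoxc6 was too low to be tested. Hoxc10 rose as well, without a SUZ12 peak at its promoter. The highest SUZ12 score in the cluster, 46, belonged to no promoter but to the kept Hoxc9 stretch, where MTF2 scored 44.1 in the first library and EPOP 18.6.

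What RING1B I53S cells kept lay inside what RING1B WT cells had. Of the bases covered in RING1B I53S +OHT libraries, those also covered in RING1B WT +OHT libraries were 100% and 99.8% for the first MTF2 library against the 2 RING1B WT libraries, 97.4% and 100% for the second, 100% for SUZ12 and JARID2, 99.1% for EPOP and 96.7% for H3K27me3. As a share of RING1B WT bases this was 15.9% and 14.2% for the first MTF2 library, 70.4% and 64.5% for the second, 19.3% for SUZ12, 16.4% for EPOP, 2.1% to 3.1% for JARID2 and 66.9% for H3K27me3. The first MTF2 library shared 86.2% of its bases with SUZ12 in the same cells and 91.5% with the second MTF2 library, which is 20.1% of the second.
The stretches that carried all 4 of MTF2 (both libraries), SUZ12, EPOP and JARID2 in RING1B I53S +OHT cells, whose centres are the kept sequences, were chr15:102981779-102982460 in Hoxc9 (682 bp, 9.97 CG per 100 bases), chr15:102990703-102991296 at the Hoxc8 start (594 bp, 7.07) and chr15:102995740-102996791 upstream of Hoxc6 (1052 bp, 3.61). The cluster as a whole had 2.15 CG per 100 bases, and the lost stretch, chr15:102934334-102936128 (1795 bp), had 3.45.
By base composition, the 10.7 kb covered by MTF2 in both RING1B WT and both RING1B I53S +OHT libraries had 57.5% GC and 5.46 CG per 100 bases. The 42.2 kb covered in both RING1B WT and 1 RING1B I53S library had 50.9% GC and 2.61, the 17.7 kb covered in both RING1B WT and neither RING1B I53S library had 50.7% and 2.16, and the 12.8 kb in no MTF2 library had 44% and 0.77. CG content thus rose with the number of RING1B I53S libraries that held a stretch, in a single cluster and without a test. Whole promoters did not follow this order. Hoxc12 (3.92) and Hoxc13 (3.48), without an EPOP peak, had more CG per 100 bases than Hoxc6 (2.53) and Hoxc8 (1.97), which held every readout. Hoxc4, also without EPOP, had the lowest value (1.6), and Hoxc11, which held every readout, had 3.52.

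**Figure D5:**
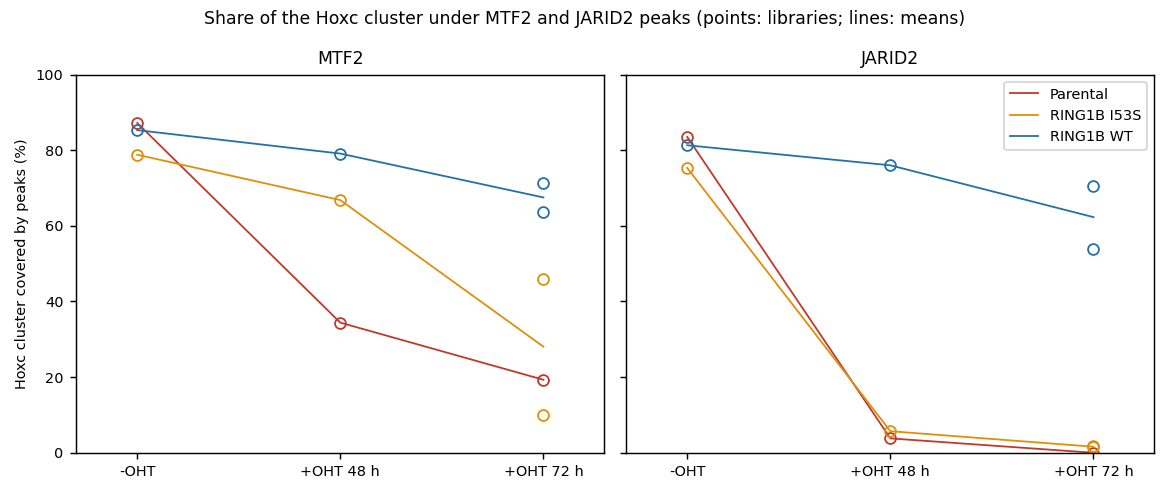
MTF2 and JARID2 over the Hoxc cluster with time of OHT. The y axis gives the percent of the cluster covered by peaks, the x axis -OHT, 48 h and 72 h of OHT, and each point is 1 library of Parental, RING1B WT or RING1B I53S cells. At 48 h JARID2 covers 5.7% in RING1B I53S cells while MTF2 covers 66.8%.

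After 48 h of OHT, MTF2 was still over the cluster where JARID2 was not. JARID2 covered 3.8% of the cluster in Parental cells, 5.7% in RING1B I53S and 76% in RING1B WT cells, with 3, 4 and 9 promoters, beside 5.64%, 2.12% and 9.76% of all promoters. MTF2 covered 34.4%, 66.8% and 79.1% in the same order, with all 9 promoters each, beside 14.9%, 15.3% and 16.2%. In RING1B I53S cells MTF2 was thus at 78.8% without OHT, 66.8% at 48 h, and 10.1% and 46% at 72 h, while JARID2 was at 75.3%, 5.7%, and 1.7% and 1.5%. The highest MTF2 score in RING1B I53S cells fell from 740.1 to 440.5, and to 72.4 and 243.9. The second 72 h libraries of MTF2 and JARID2 share their style of title with the 48 h libraries and the first do not. Within that style, RING1B I53S cells had MTF2 at 66.8% at 48 h and 46% at 72 h, and JARID2 at 5.7% and 1.5%, in 1 library each. For the first 72 h libraries, library set and time cannot be told apart.

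Without MTF2, no SUZ12 was left over the cluster in RING1B I53S +OHT cells. SUZ12 covered 56% of the cluster in Parental MTF2 KO -OHT and 54.4% in RING1B WT MTF2 KO +OHT cells, each with 7 promoters (all but Hoxc13 and Hoxc12), beside 5.91% and 6.55% of all promoters. The highest scores were 119.4 and 132.5 against 697.4 and 455.9 in the lines with MTF2. In Parental and RING1B I53S MTF2 KO +OHT cells SUZ12 had no peak in the cluster, while the same libraries held 1801 and 706 peaks elsewhere, at 2.29% and 0.754% of all promoters. The covered share was thus almost the same without MTF2 where RING1B was active, and 0% instead of 13.2% and 10.3% where it was lost or inactive.
H3K27me3 in MTF2 KO cells covered 7.8% in Parental -OHT (5 promoters), 6.7% in RING1B WT +OHT (3), 0.6% in RING1B I53S +OHT (1, Hoxc9, score 10.4) and 0% in Parental +OHT cells. Of all promoters it reached 6.29%, 3.72%, 1.46% and 0.307% in the same order. All 4 covered shares of the cluster lie below the 24.5% to 76.5% of the lines with MTF2. The 4 input libraries of MTF2 KO cells, with 9 to 19 peaks each, had none in the cluster.

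Compared with the other Hox clusters, Hoxc was the least covered in many libraries. In Parental -OHT cells RING1B covered 57.3% of the Hoxa cluster, 43.1% of Hoxb, 27.3% of Hoxc and 51.1% of Hoxd. H2AK119ub1 covered 65.3%, 65.9%, 35.6% and 70.1%, and AEBP2 45.4%, 51.9%, 15.5% and 36.6%. MTF2 (97.5%, 76.4%, 87.2% and 87.9%) and JARID2 (95.1%, 70.9%, 83.5% and 86.7%) were exceptions, with Hoxb lowest. In RING1B I53S +OHT cells H2AK119ub1 was at 4.4%, 22.6%, 0% and 7.7%, and SUZ12 at 21.6%, 33.7%, 10.3% and 20%. H3K27me3 did not follow, with 47.7%, 65.3%, 52.9% and 46.6%. The clusters differ in length and gene density, and these values have 1 library each and no test.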

How the data were processed

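RNA-seq libraries (SMART-seq2, poly-A primed and without strand) and ChIP-seq libraries of mouse ESCs were taken as processed by the authors. For RNA-seq, the authors aligned reads with STAR 2.7 to GRCm38 and deposited raw counts per gene made with featureCounts. For ChIP-seq, they aligned with Bowtie 1.2.2 to mm10 (with dm6 for the histone marks), kept uniquely mapped reads without duplicates and called peaks per library with MACS2 2.1.1, and the score column of the deposited peak lists holds −log10 p of at least 10. Tables of the authors' own comparisons hold fold changes and p-values and were not used, nor were their normalized tables.

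Genes were tested with edgeR 4.0.16 (R 4.3.3), quasi-likelihood F test on counts with TMM scaling and filterByExpr (minimum count 10). The 12 Parental, RING1B WT and RING1B I53S libraries shared 1 fit (18154 genes) and the 4 Eed fl/fl libraries another (25170 genes). Interactions with Eed fl/fl used all 16 (27663 genes). A call needed a log2 fold change of at least 1.5 (2.83-fold) in size and a Benjamini-Hochberg adjusted p under 0.05. The test gives no SE, so each SE is the size of the log2 fold change divided by the square root of its F statistic. The 95% intervals of log2 differences use this SE with a normal approximation, and both are rough at low counts. CPM values use TMM-adjusted library sizes. Where a group summed to 0 counts, the fold was taken against a floor of 3 counts per group, and intervals on low counts cover counting error only. Peaks were intersected with GENCODE M21 promoters (2.5 kb to either side of any start, at least 1 base). Depth could not be read from the peak lists, so a missing peak means only that none passed the score of 10. The scripts were tested on simulated data.

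Groups came from sample titles. The members and gene lists were chosen with earlier results of these data known. All 9 members are named, other lists by counts with at most 4 examples (lowest adjusted p in Parental cells first), and likeness by the 5 highest Pearson r of log2(CPM + 0.5) with the Hoxc sum. Alternatives were DESeq2 1.42.0, other scaling and filters, a replicate block, each library left out, and for peaks other windows, scores and overlaps. Leaving out each MTF2 and JARID2 library was chosen after seeing the data. Of the members, 1 of 9 had a RefSeq promoter entry, which was not printed.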

Additional observations from a re-analysis of the deposited data

Results flagged for a closer look

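The OHT effect on Hoxc10 differed between Eed fl/fl and Parental cells by -7.62 on the log2 scale (edgeR quasi-likelihood interaction in all 16 libraries, SE 1.59, adjusted p = 0.00289). Counts were 0 and 0 without and 57 and 48 with OHT in Parental cells, and 6 and 8 without and 8 and 18 with OHT in Eed fl/fl cells. Because the Parental -OHT libraries had no reads, the fitted size depends on the prior count and is not a bound. Only +OHT libraries had Hoxc10 over the cutoff on low counts, so the call is a description. The value was -8.46 to -7.38 when any 1 library was left out.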

How the results depend on the processing

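Every group had 2 libraries, and most members had few reads. Of 195 alternative values of the summary counts, 166 stayed within 1.5 times the main value and 29 moved. Of 509 alternative values of single members, 454 kept their direction and side of the threshold, 22 lost a call, 21 gained one and 12 changed sign. The cause of these changes was not tested, apart from the smaller number of libraries in the fits that leave some out.

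Members called for the OHT effect numbered 3 to 5 in RING1B I53S cells when 1 library was left out (main 5, lowest without -OHT replicate 2) and 0 to 1 in RING1B WT cells (main 0), where DESeq2 and no filter beyond 1 count each called 1, Hoxc4. Between RING1B WT and Parental +OHT cells they numbered 0 to 2 with 1 library left out (main 3; 0 without RING1B WT +OHT replicate 1) and 5 with only the groups compared. Between RING1B I53S and RING1B WT +OHT cells they numbered 0 to 1 with 1 library left out (main 1), 2 with no filter beyond 1 count, 4 with at least 10 counts in every library of a group, and 0 with only the groups compared. For the difference of OHT effects between RING1B WT and Parental cells, DESeq2 and no filter beyond 1 count each called 1 (main 0), and between Eed fl/fl and Parental cells no filter gave 2 and leaving out 1 library 1 to 2 (main 1).

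Replicate numbers were shared by all groups, but nothing says that they mark a shared culture. Deviations of same-numbered libraries from their group means correlated across genes at 0.5 to 0.61 among the 3 -OHT groups of the RING1B lines, 0.25 to 0.29 among the 3 +OHT groups, 0.12, 0.19 and 0.23 between -OHT and +OHT of RING1B WT, Parental and RING1B I53S cells, and 0.57 in Eed fl/fl cells. Between -OHT and +OHT groups of different RING1B lines they ran from -0.03 to 0.2. Where high, these values are a hint from the data that a number may mark a shared set, but across treatments in the RING1B lines they were low. With the replicate block, members called were 1 (Hoxc4) for the OHT effect in RING1B WT cells, 4 (Hoxc5 added, adjusted p = 0.0486) between RING1B WT and Parental +OHT cells, 3 (Hoxc9, Hoxc10 and Hoxc11) between RING1B I53S and RING1B WT +OHT cells, and 1 (Hoxc10) for the difference between RING1B WT and Parental effects. Genes called higher or lower in Eed fl/fl cells went from 2 to 161 with the block, without a Hoxc gene (adjusted p of the 5 tested members 0.248 to 0.882).

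Among the single-member values given in the report, those that changed sign when 1 library was left out belonged to members that were not called. Their log2 ranges were -0.91 to 0.85 for Hoxc12 in Parental cells, -0.07 to 0.48 for Hoxc13 in RING1B WT cells, and -0.15 to 1.85 for Hoxc5, -0.62 to 0.88 for Hoxc12 and -0.95 to 0.05 for Hoxc4 in Eed fl/fl cells. Between RING1B WT and Parental +OHT cells they were -0.7 to 1.05 for Hoxc12 and -0.05 to 0.4 for Hoxc4, and between RING1B I53S and RING1B WT +OHT cells -2.36 to 0.17 for Hoxc12.

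For promoters with a peak, the number by which RING1B WT exceeded RING1B I53S +OHT cells went for H3K27me3 from 1 to 2 with promoters of 1 kb and to 2 with 500 bp of overlap. With a score of at least 20 it went for SUZ12 from 2 to 6, for MTF2 from 1.5 (mean of 2 libraries) to 4 and for EPOP from 3 to 7, and with promoters of 1 kb for EPOP to 5. For H3K27me3 in MTF2 KO cells it went from 2 to 1 with promoters of 1 kb and to 0 with a score of at least 20. Leaving out 1 library gave 1 to 2 for MTF2 and 7 to 8 for JARID2 (main 7.5).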
